A study of Mus musculus with 2 samples.

Results

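The microRNA genes described here lie inside the gene body of Sfmbt2 on mouse chromosome 2 (10370510 to 10595253, plus strand, GRCm38). They were chosen by position alone: every microRNA gene of the count tables whose GENCODE M21 position falls within Sfmbt2 on its strand was taken, with no use of its level. The rule found 107 of the 1973 genes in the tables. A further 12 genes annotated there in GENCODE M21, among them Mir466b-1, Mir466e and Mir669a-4 to Mir669a-12, were not analysed here. The study sequenced small RNA of under 30 bases from the facial prominences of B6NCrl mouse embryos at day 11.5. The prominences are mesenchyme-filled buds, covered by epithelium, that grow together into the face. There is 1 group of 2 biological replicates, a pool of 109 embryos of mixed sex for replicate 1 and of 88 for replicate 2, and the labels describe the embryos as healthy and name no treatment. Both pools carry the same donor entry, so the spread between them may be partly technical.

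Sfmbt2 encodes a Polycomb-group protein that is needed in the trophoblast, and in the early mouse embryo and placenta the gene is transcribed mainly from the paternal copy. One of its introns holds a rodent-specific array of microRNA genes of the Mir297, Mir466, Mir467 and Mir669 families, which arose by repeated tandem duplication. A microRNA is cut from a hairpin in its host transcript, and its seed, bases 2 to 8 of the mature strand, selects the messenger RNAs it represses. The array is best known from placenta and from embryonic stem cells, and its loss impairs growth of the placenta.

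Genes of the same 4 families also occur singly at other places in the genome, and 10 of them are in the tables. The mature sequences of 4 of these are shown, as RefSeq gives them on GRCm38.p6, because each differs by 1 base from a stretch in the hairpin of a gene inside Sfmbt2 that was detected. Capitals mark the seed.
mmu-miR-467h: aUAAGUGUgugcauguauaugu
mmu-miR-467g: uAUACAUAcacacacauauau
mmu-miR-467f: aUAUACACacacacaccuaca
mmu-miR-669n: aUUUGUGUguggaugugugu
The stretch nearest to miR-467h (Mir467h, chromosome 9, 115381898 to 115381919, plus strand) lies in the hairpin of Mir467e, and the seed matched in full. The stretch nearest to miR-467g (chromosome 5, 34732872 to 34732892, minus strand) lies in Mir669l and also matched the seed in full. For miR-467f (chromosome 11, 69635419 to 69635439, minus strand) the nearest stretch lies in Mir467d, and for miR-669n (chromosome 3, 115979905 to 115979924, plus strand) in Mir669c, and in both the base that differs is in the seed. The 4 printed seeds all differ from each other.

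The array gave microRNA counts in the facial prominences of both pools, and almost all of them came from a few of its genes. The 107 genes received 9851 sense counts in replicate 1 and 10856 in replicate 2, of 1941745 and 2319881 sense counts in all. This was 0.507% of the counts in replicate 1 (exact Clopper-Pearson 95% interval 0.497 to 0.517) and 0.468% in replicate 2 (0.459 to 0.477), a mean of 0.488% ± 0.0278 (SD, n = 2). Intervals cover counting error only. Genes were called detected with at least 10 counts in both libraries, and 9 of the 107 (8.41%) were. Of all loci in the tables, 17.8% were detected, so the share inside Sfmbt2 was below that of the tables as a whole. Reads placed at several positions are not counted, and these shares take no account of that. At 50% or more of hairpin sequence of their own, as defined below, 27.6% of array genes and 25.4% of other loci were detected. The 9 detected genes held 99.8% of the array's counts in replicate 1 and 99.7% in replicate 2.

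The genes of the Mir467 family led. Mir467d (10507630 to 10507714) had 3420 counts in replicate 1 and 4077 in replicate 2. Scaled to a library total of 1000000 sense counts (CPM), this was 1761 CPM (1703 to 1821) and 1757 CPM (1704 to 1812), and the libraries overlapped within counting error. Mir467d stood at place 87 of the 1973 loci. Mir467e (10505721 to 10505807) had 2399 and 2402 counts, or 1235 CPM (1187 to 1286) and 1035 CPM (994 to 1078). It was lower in replicate 2, with intervals that did not overlap. Mir467c (10473931 to 10474027) had 1881 and 2052 counts, or 969 CPM (925 to 1013) and 885 CPM (847 to 924), with replicate 2 again the lower. Together these 3 genes took 78.2% of the array's counts in replicate 1 and 78.6% in replicate 2.

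Most of the rest came from 5 genes of the Mir669 family, whose member Mir669a is known to restrain skeletal muscle differentiation in heart progenitors. Mir669l (10468971 to 10469068) had 940 and 978 counts, or 484 CPM (454 to 516) and 422 CPM (396 to 449). Mir669o (10514300 to 10514395) had 737 and 796 counts, or 380 CPM (353 to 408) and 343 CPM (320 to 368). For Mir669l the intervals of the libraries did not overlap and for Mir669o they did. Mir669c (10509296 to 10509404) had 313 and 359 counts, or 161 CPM (144 to 180) and 155 CPM (139 to 172). Mir669e (10467495 to 10467613) had 88 and 100 counts, or 45.3 CPM (36.3 to 55.8) and 43.1 CPM (35.1 to 52.4). For each of these genes, Mir669c and Mir669e, the intervals of the libraries overlapped. Mir669h (10518155 to 10518279) was only just past the minimum, at 11 and 16 counts, or 5.67 CPM (2.83 to 10.1) and 6.90 CPM (3.94 to 11.2).

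The Mir466 family had few counts. Mir466n (10513741 to 10513834) was its 1 detected gene of 20, at 40 and 44 counts, or 20.6 CPM (14.7 to 28.1) and 19.0 CPM (13.8 to 25.5). None of the 5 Mir297 genes was detected, and together they had 4 counts in replicate 1 and 9 in replicate 2. Of the 14 Mir467 genes 3 were detected, and of the 20 Mir669 genes 5. The remaining 48 genes carry predicted-gene names (Gm), and none of them was detected, with 1 and 8 counts in all. By family, Mir467 took 78.2% and 78.6% of the array's counts, Mir669 21.2% and 20.8%, and Mir466 0.518% and 0.479%. Only reads placed at 1 position enter these values. The median share of hairpin sequence of a gene's own, as defined below, differed by family. It was 29.9% for Mir297, 37.1% for Mir466, 0% for Mir467, 40.8% for Mir669 and 11.3% for the predicted genes. The part of this in the family values was not tested.

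**Figure D1:**
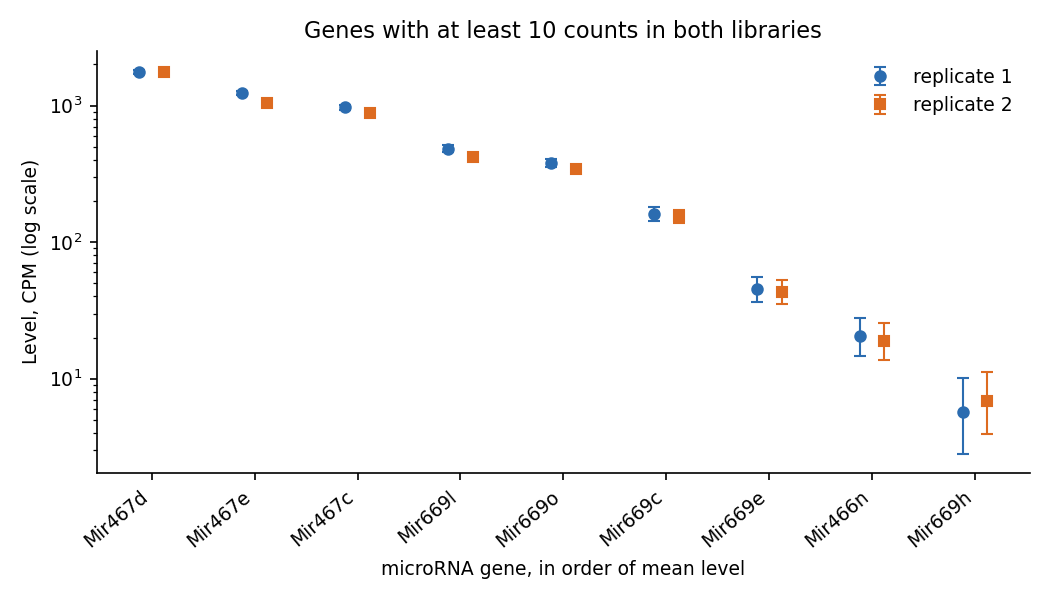
Level in CPM (log axis) of the 9 genes with at least 10 counts in both libraries, ordered by mean level. Points are libraries (circles replicate 1, squares replicate 2) and bars are exact 95% counting intervals; levels fall from 1761 and 1757 CPM for Mir467d to 5.67 and 6.90 CPM for Mir669h.

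The levels of the detected genes spanned 311-fold in replicate 1 and 255-fold in replicate 2, and their order was the same in both. A step between neighbours in this order was counted as larger than the replicate spread when, in each library, its size was above the log2 ratio between the pools for either gene. By this rule 7 of 8 steps were larger. The exception was Mir467e over Mir467c, at a log2 difference of 0.35 in replicate 1 and 0.23 in replicate 2, against a difference of 0.25 between the pools for Mir467e itself. Mir467d exceeded Mir467e by a log2 difference of 0.64 ± 0.18 (SD, n = 2). Mir467c exceeded Mir669l by 1.03 ± 0.05, and Mir669l exceeded Mir669o by 0.32 ± 0.04. Because all the genes lie in the same intron, these steps are differences among products of 1 host transcript unit by the annotation. Levels of different microRNAs in a library also carry differences in ligation and amplification, whose part was not tested. Only reads placed at 1 position are counted. Among the detected genes, the share of hairpin sequence of their own, as defined below, ran from 39.1% for Mir467d to 96.9% for Mir669e. The part of this range in the order, the span and the steps was not tested. The tables count by gene, so the arms of a hairpin cannot be told apart.

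The counted genes sat at the ends of the array. All 107 genes fall in intron 11 of the Sfmbt2-205 transcript, which is 62.5 kb long, and they cover 53.0 kb of it with a median of 210 bases between neighbours. Mir669e, Mir669l and Mir467c lie in the first 8.74 kb, where 3 of 17 genes (17.6%) were detected. This part held 29.6% and 28.9% of the array's counts. The other 6 detected genes lie in the last 12.6 kb, which held 30 genes and 70.4% and 71.0% of the counts. In the 31.7 kb between Mir467c and Mir467e, none of 60 analysed genes was detected. The 12 annotated genes that were not analysed all lie in this stretch as well. These 60 genes had 3 counts in replicate 1 and 9 in replicate 2, no more than 2 at any gene. The division into these 3 stretches was made after the values were seen. The edges of the middle are the nearest detected genes on either side of the Mir467a and Mir467b genes. That none was detected there therefore follows in part from the division.

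**Figure D2:**
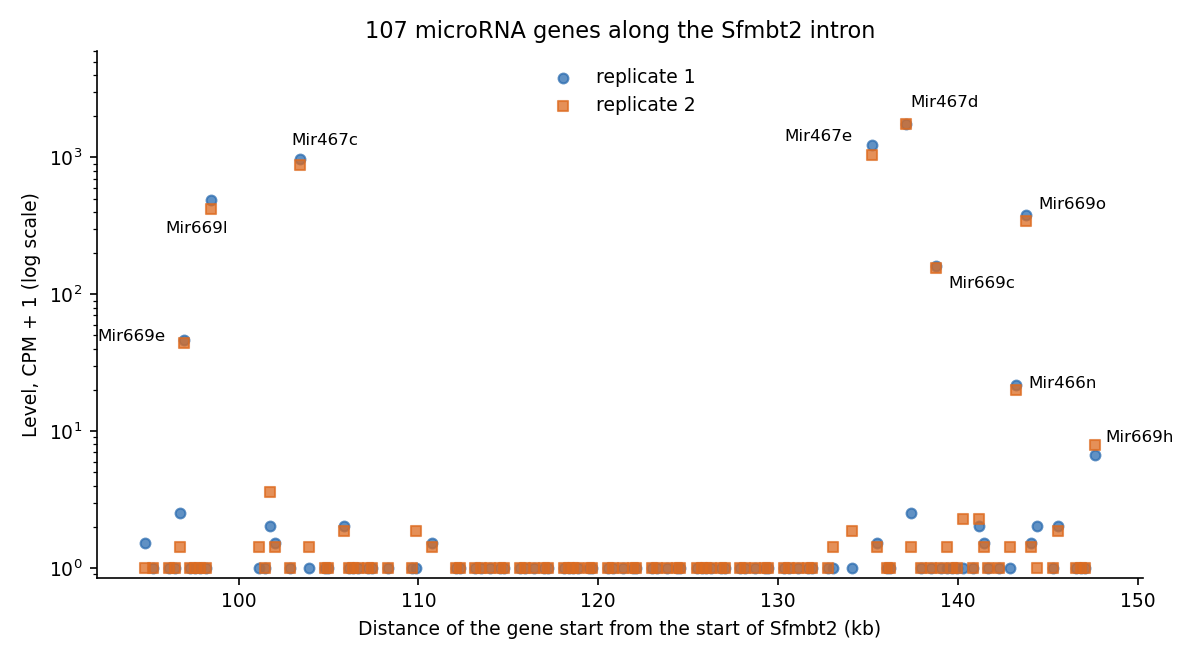
Level of each of the 107 genes in CPM + 1 (log axis) against the distance of its start from the start of Sfmbt2 in kb; circles are replicate 1 and squares replicate 2. The 9 named genes lie in the first and last stretches, and the 60 genes between Mir467c and Mir467e lie at or near 0 counts.

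The middle stretch is where the array repeats itself most closely. The Mir467a copies and Mir467b occur there at a median spacing of 2455 bases, from 2413 to 4880. The longest of these spacings spans Gm25022, a predicted gene whose hairpin shares its full 83 bases with Mir467a copies such as Mir467a-2. Of the 60 genes of the stretch, 37 had a hairpin identical to that of another annotated gene. To describe this for every gene, each 22-base stretch of a hairpin, about the length of a microRNA, was looked up on both strands of all annotated microRNA hairpins. In the middle 40 of 60 genes had no 22-base stretch of their own, against 0 of 17 in the first part and 2 of 30 in the last. The median share of stretches found in no other hairpin was 0% in the middle, 50.7% in the first part and 58.8% in the last.

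Reads placed at several positions are kept apart in the tables and belong to no gene, so a gene whose mature strand occurs elsewhere can be at 0 there and still be expressed. That class held 1081615 reads in replicate 1 and 1388721 in replicate 2, or 32.9% and 33.3% of the mapped reads, from the whole genome. How many of them came from this array was not analysed here, so the level of its repeated genes is unknown and the sum over the array is a minimum.

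All 9 detected genes had hairpin sequence of their own. Of the 42 genes with no 22-base stretch of their own, 41 were at 0 in both libraries, and the exception, Mir467a-1, had 2 and 2 counts. Among the 36 genes with some but under 50% of stretches of their own, 1 was detected, which was Mir467d at 39.1%. Among the 29 genes at 50% or more, 8 were detected (27.6%). At other loci of the tables with 50% or more, 340 of 1339 (25.4%) were detected. All 38 genes with an identical hairpin elsewhere in the annotation were at 0 in both libraries. A read from within such a hairpin has several positions and is not counted, so these 0 counts follow from the counting rule. For the 42 genes with no stretch of their own, the same holds in large part. In all, 77 of the 107 genes (72.0%) were at 0 in both, where 64.1% of all loci were. For reads placed at 1 position, a gene at 0 counts can still stand at a level of 1.55 CPM in the first library or 1.29 CPM in the second (the limit of 3 counts). The lookup used annotated hairpins only, so copies elsewhere in the genome are not seen by it.

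**Figure D3:**
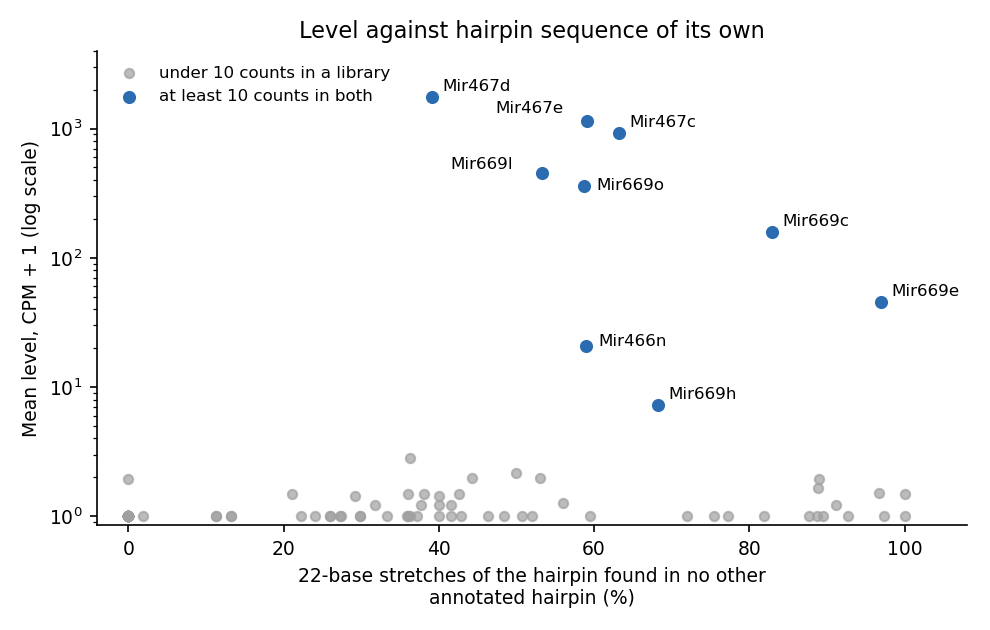
Mean level in CPM + 1 (log axis) of each of the 107 genes against the percentage of its hairpin's 22-base stretches found in no other annotated hairpin. The 9 detected genes (dark) range from 39.1% for Mir467d to 96.9% for Mir669e, and the 42 genes at 0% lie at or near 0 counts.

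Having sequence of its own did not go with a count in every case. Of the 29 genes at 50% or more, 13 were at 0 in both libraries. Among them were Mir669b at 89.5% and Mir669i at 75.5% of stretches of their own, and the predicted gene Gm22239, which shared no run of 18 bases with any other hairpin. Mir466g at 100% had 1 and 1 counts, and Mir466h, known from work on cell death in cultured cells, had 2 and 0 counts at 96.7%. Mir466l, whose mature strand is known for its action on interleukin 10 messenger RNA, had 2 and 2 counts at 89.0%. For reads placed at 1 position, the levels of these genes at this depth were at or near the limit that a count of 0 allows. The share is taken over the whole hairpin. The longest run shared with another hairpin was 29 bases for Mir669b, 47 for Mir669i, 29 for Mir466l and 23 for Mir466h. Mir466g, like Gm22239, shared no run of 18 bases. Whether the shared runs hold the mature strand was not analysed here.

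The 3 leading genes are close relatives of the Mir467a copies. The copy they were aligned with, Mir467a-1, had 2 and 2 counts. Its full 73 bases also occur in the longer hairpins of Mir467a-2 and Mir467a-4, which were at 0 in both libraries. Aligned end to end, the hairpin of Mir467d was identical to that of Mir467a-1 at 95.9% of aligned bases, with 3 mismatches. Mir467c matched Mir467a-1 at 93.2% (5 mismatches), and Mir467e matched Mir467a-1 at 90.4% (7 mismatches). Mir467b, which had 1 count in each library, matched Mir467a-1 at 97.3% (2 mismatches). The sequence that Mir467d has of its own lies mainly toward the 5′ side: 59.4% of the stretches that start in the first part of its hairpin, against 18.8% in the remainder. In Mir466n it was the other way round, at 19.4% and 97.3%. The 10 Mir467a copies together had 2 counts in each library, and none of the 10 had a stretch of its own. Among the 7 Mir466b copies that were counted, 6 were at 0 in both libraries, with 1 count in all. All 3 Mir466f copies and both Mir669p copies were at 0.

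The hairpins of the array also share a composition. Their median GC content was 38.3%, against 52.0% at the 1787 other loci with a hairpin sequence. Runs of TG or CA repeats of at least 8 bases, read on the gene's strand, were present in 76 of 107 hairpins (71.0%) and in 143 of the 1787 others (8.002%). This did not set the detected genes apart: 7 of the 9 detected and 69 of the 98 other genes of the array had such a run, and the median GC content was 39.4% and 38.2%. By the lookup of a run of at least 20 bases, 105 of 107 genes shared sequence with another hairpin, among them all 9 detected genes and 76 of the 77 genes at 0 in both libraries. Over all loci with a hairpin sequence the share was 49.0%. A shared run of this length therefore did not separate counted from uncounted genes within the array.

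No count fell on the strand opposite to any of the 107 genes in either library, and 77 of them had no sense count either. As a pooled share of stranded counts this was 0%, against 3.15% over all loci. How the opposite counts were spread over the other loci was not analysed here. The 98 genes below the minimum had 22 counts in replicate 1 and 32 in replicate 2, at 21 genes. The highest was Mir297a-2, at 2 and 6 counts.

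The single genes of the same families at other places were not seen. All 10 (Mir297-1, Mir466f-4, Mir466i, Mir466j, Mir466k, Mir466q, Mir467f, Mir467g, Mir467h and Mir669n) had 0 counts in both libraries. By the limit of 3 counts, each can still stand at 1.55 CPM (replicate 1) or 1.29 CPM (replicate 2) for reads placed at 1 position. Mir467h, whose printed sequence differs by 1 base from a stretch of Mir467e, had 0 counts where Mir467e had 2399 and 2402. Mir669n shared no run of 20 bases with another hairpin, and 9 of the 10 did.

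The pools were then set against each other, to see how far the array's level repeats. The share of the array was 0.922 times as high in replicate 2 as in replicate 1 (95% interval 0.897 to 0.948), a log2 ratio of -0.12. Gene by gene, the 8 genes of the array that averaged 20 counts or more had a median absolute log2 ratio of 0.13 between the pools, and all 334 loci of the tables with that mean had 0.17. Of the 8 genes none differed by over 2-fold, where 3.89% of those loci did. All 8 were lower in replicate 2, against 48.8% of loci, but for Mir467d the log2 ratio was -0.00 (-0.07 to 0.06). For 3 of the 8 the counting interval lay below 0, where 21.9% of loci had such an interval. These were Mir467e at -0.25 (-0.34 to -0.17), Mir669l at -0.20 (-0.33 to -0.07) and Mir467c at -0.13 (-0.22 to -0.04). Genes of 1 intron are not independent, and the comparison is between 2 libraries of 1 group, with no condition that differs.

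**Figure D4:**
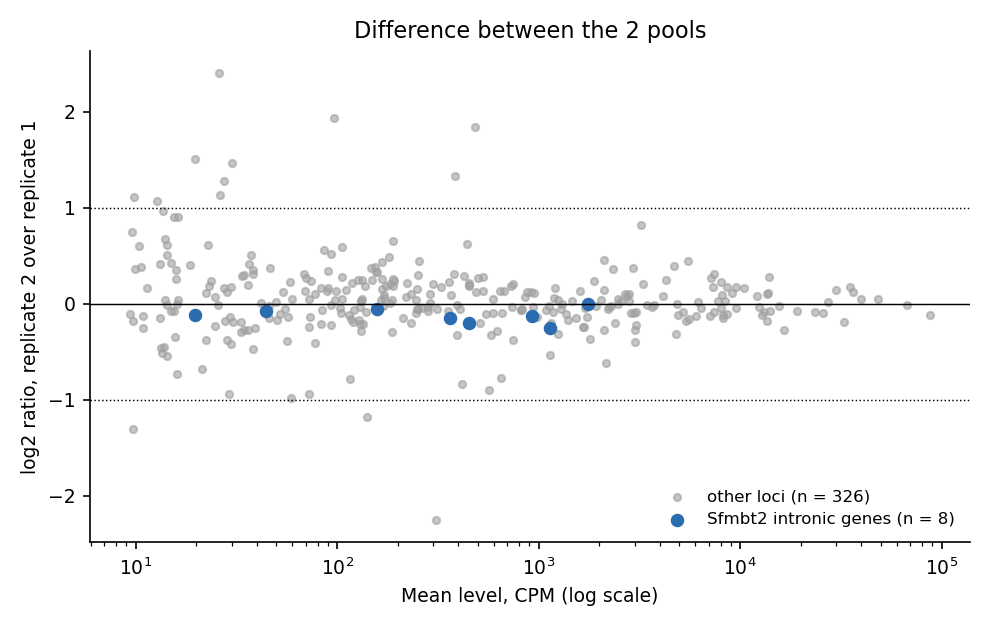
log2 ratio of replicate 2 over replicate 1 against mean level in CPM (log axis) for the 334 loci that averaged 20 counts or more; dotted lines mark 2-fold. The 8 genes of the Sfmbt2 array (dark) lie between -0.25 and 0.

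The tissue label was set against microRNAs known from its parts. The mesenchymal loci Mir214, Mir199a-2, Mir140 and Mir143 summed to 50805 and 54163 CPM, and the epithelial Mir205, Mir203, Mir200c and Mir429 to 28347 and 25871 CPM. Because the array is known from trophoblast and stem cells, the Mir290 to Mir295 genes, which mark the same cells, were read beside it. Mir290a, Mir291a, Mir292, Mir293, Mir294 and Mir295 summed to 195 and 207 CPM, from 1 and 1 counts at Mir290a to 165 and 216 at Mir294. None of the 6 was at 0, and the part of such cells in the array's level was not tested. In bulk tissue, fewer cells of a type and less RNA per cell cannot be told apart. The cardiac loci Mir208a and Mir208b (252 and 912 CPM), the erythroid Mir451a (218 and 547 CPM) and the liver locus Mir122 (16.0 and 44.0 CPM) were higher in replicate 2, in which the array was slightly lower. The other erythroid locus, Mir144, had 46.4 and 45.7 CPM. The part of these cells in the difference between the pools was not tested.

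The array has more genes than any of the 4 other clusters it was set beside, and the lowest share of them detected. The shares take no account of reads placed at several positions, which belong to no gene. The median share of hairpin sequence of a gene's own was 27.4% in the array and 100% in each other cluster. In the array, 42 genes had no such sequence. At 50% or more of it, 27.6% of array genes and 25.4% of other loci were detected. The part of this difference between clusters in the shares was not tested. The array's share of the counts, 0.488% ± 0.0278, was near the 0.501% ± 0.0432 of the embryonic Mir302 and Mir367 cluster. That cluster reached it with 5 genes, 4 of them detected. The distal Dlk1-Dio3 cluster from Mir379 to Mir410, another imprinted array, took 5.20% ± 0.189 with 33 genes, of which 29 (87.9%) were detected against 8.41% inside Sfmbt2. The Mir17 to Mir92-1 cluster took 11.1% ± 0.168 with 6 genes, all detected, and the 7 loci of the Mir290 to Mir295 run 0.0205% ± 0.000648. The median of the 9 detected genes of the Sfmbt2 array was 361 CPM, from 6.28 CPM for Mir669h to 1759 CPM for Mir467d, against 192 CPM over all 351 detected loci, 491 CPM in the Dlk1-Dio3 cluster and 1526 CPM in the Mir302 cluster. The median log2(CPM + 1) over the 30 genes of the array with a count in either library was 0.84, against 2.70 over the 708 such loci of the tables, and 28.04% of the array's genes had a count where 35.9% of loci did. Hairpins in the Dlk1-Dio3 cluster shared a run of 20 bases in 4 of 33 cases, and those of the Sfmbt2 array in 105 of 107.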

How the data were processed

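Small-RNA libraries of 2 pools were analysed. As deposited by the authors, each table holds unnormalised read counts by microRNA gene for mm10 with GENCODE M4, per the text file beside it. The aligner and the counter are not given in the sources used here. Columns hold counts irrespective of strand, sense and opposite; sense counts were used and scaled to their total. Lines that name no gene (59.2% and 65.8% of 4755968 and 6781929 reads) were left out.

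Identifiers were matched to GENCODE M21 (GRCm38) with versions ignored, 1894 of 1973. Hairpins came from GENCODE M21 transcripts. No array gene matched a RefSeq microRNA entry (0 of 107), so the planned count of genome matches of mature strands was not run and hairpins were used. The step on 22-base stretches, the hairpin identities and the 3 stretches were chosen after values were seen. Members and lists were chosen with earlier results of these data known. Named genes are all members with 10 counts in both libraries (detailed values for the most abundant), members over 2-fold apart, examples of those at 0 and relatives elsewhere; genes under 10 counts named for their sequence were chosen after their values were seen.

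With 1 group there is no test between conditions. Ratios have exact binomial 95% intervals; called means past 2-fold at a mean count of at least 20. Ratio calls were tested on simulated data. Alternatives were other strands, denominators, minimums, pseudocounts, memberships, each pool alone, TMM (edgeR 4.0.16) and DESeq2 1.42.0 size factors, under R 4.3.3. Hairpins were aligned with Biopython, intervals came from scipy 1.17.1 in Python 3.11.15, and plots from matplotlib 3.10.9.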

Additional observations from a re-analysis of the deposited data

How the results depend on the processing

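Of 28 alternative values for 7 results, 22 stayed close to the reported value. Close meant within 1.5 times for a count, the spread between replicates for a share or level, and the counting interval for the ratio. Several of the 22 could not have moved. The share in 1 pool always lies within the SD of 2 pools. Memberships by identifier version and by distance returned the same 107 genes. With no opposite-strand counts at these genes, the number detected could not change with strand. Per mapped read, the array's share was 0.280%, since reads placed at several positions and at no locus enter the total. With a minimum of 1 count in both libraries 20 genes were detected. The median log2(CPM + 1) of genes with a count was 0 over all 107 genes and -0.18 with a pseudocount of 0.1; it was 1.18 in replicate 1 alone and 0.90 in replicate 2 alone. Counted as having no 22-base stretch of their own, 41 genes at 0 in both libraries shared sequence in place of 76. This setting was chosen after seeing the data. Also not planned were shared runs of 18, 22 and 25 bases, and TMM and DESeq2 size factors for the number lower in replicate 2. These stayed close and are among the 22. The ratio between pools was 0.924 with TMM and with DESeq2 size factors, and all 8 genes were lower in replicate 2 with each. No paired analysis was possible because the labels give 1 group. The alternative by genome positions of mature strands was not run. Depth limits genes under 10 counts: a count stands for 0.515 and 0.431 CPM.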
